A study of Mus musculus with 10 samples.

Results

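The genes described here are 38 genes of the lysosome, grouped as 16 subunits and accessory proteins of the vacuolar proton pump (V-ATPase), 9 cathepsins and 13 other lysosomal genes. They were picked by symbol, with earlier results of these data known, and all 38 were found among the 55385 mouse genes of the deposited table. RNA was sequenced in bulk from 10 libraries of Tomato+ neutrophils isolated from squamous cell carcinomas (SCC) grafted on CatchupIVM-red mice, a reporter line in which the neutrophil gene Ly6g drives the red Tomato protein. The grafts were either the parental Sox2low SCC cells, called control grafts here, or Sox2Hi SCC cells, in which the stem cell factor Sox2 is high. The descriptions of the libraries also carry the code C57 in every group, with GFP for control and Sox2 for Sox2Hi grafts, and do not explain these codes. The mice were untreated, called naive, or had received anti-PDL1/CD40 agonist, an antibody to the checkpoint ligand PDL1 with an activating antibody to CD40. The naive groups held 3 libraries each, for control and for Sox2Hi grafts, and the treated groups 2 libraries each. All 4 groups share the host line and the sort for Tomato. Dose, duration, age and sex are not given in the sources used here. No label says which libraries came from separate mice, so the p-values measure the spread between these libraries, which may be in part technical.

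The lysosome is the acidic compartment in which cells break down proteins, lipids and carbohydrates. Its acidity comes from the V-ATPase, a rotary pump with a cytosolic V1 sector that hydrolyses ATP and a membrane V0 sector that carries protons. Cathepsins are its proteases, most of them active at low pH, and membrane proteins such as LAMP1 and LAMP2 line its wall. The transcription factor TFEB and its relatives MITF, TFE3 and TFEC bind a short E-box-like motif, the CLEAR element, in front of many lysosomal genes. In neutrophils the same machinery serves phagosomes and granules, and cathepsin C trims the serine proteases of azurophil granules into their active form.

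The libraries held 13815734 to 22986193 counts over mouse genes. Levels are given as CPM, counts relative to library size, after scaling by factors taken from the 11274 genes that averaged 5 CPM or more (the expressed-gene scaling), and a gene was called where edgeR's quasi-likelihood test gave a Benjamini-Hochberg adjusted p under 0.05 over those genes. Genes that should be silent, the olfactory and vomeronasal receptors, gave a background that, as the median count per kilobase over 1464 of them extended to the exons of every gene, would make up 1.58% and 1.74% of counts in the control treated libraries and 3.63% to 8.37% in the other 8. With factors from all 29648 genes with usable counts (the all-gene scaling), the 36 members tested shifted by a median of 0.55 on the log2 scale for treatment in control grafts and by -0.27 in Sox2Hi grafts, so directions and calls can depend on the scaling. Ly6g, the gene that drives the reporter, stood at 1.74 to 3.50 CPM in control naive, 11.4 to 17.8 in control treated, 1.87 to 3.19 in Sox2Hi naive libraries and 5.80 to 10.3 in their treated counterparts. None of the 20 neutrophil markers was at 0 reads in any library, and neither was any of the 20 macrophage and dendritic cell markers, the 14 keratinocyte or the 14 fibroblast and endothelial markers. The Y-linked gene Ddx3y had at most 8 reads in 4 libraries, 1 in each group, and at least 1007 in the other 6. The libraries of a group were therefore not all repeats of 1 sample. Of the members 3, Lamp2, Atp6ap1 and Atp6ap2, are on the X chromosome.

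RefSeq promoters (GRCm38.p6, 250 bases before to 50 after the start of transcription) were found for 30 of the 38 members. The CLEAR core, read as TCACGTGA, was found in 6 of these 30 (20%), against 1.12% of the 27025 genes in the same table. It reads the same on both strands. The shorter TCACGTG, on either strand and counting those 6, was found in 9 of 30 (30%) against 4.29% of genes, and the plain E-box CACGTG in 10 of 30 (33.3%) against 8.09%. A longer palindrome, TCACGTGA with a further base fixed on each side, was also searched for. It was found in 0 of 30 members against 0.37% of genes, a share too low for its absence from 30 promoters to be informative. The 6 promoters with TCACGTGA belong to 3 V-ATPase genes, 2 cathepsins and the calcium channel gene Mcoln1. They are printed 5′ to 3′ on the gene's own strand, with the motif in capitals.
Atp6v0d1: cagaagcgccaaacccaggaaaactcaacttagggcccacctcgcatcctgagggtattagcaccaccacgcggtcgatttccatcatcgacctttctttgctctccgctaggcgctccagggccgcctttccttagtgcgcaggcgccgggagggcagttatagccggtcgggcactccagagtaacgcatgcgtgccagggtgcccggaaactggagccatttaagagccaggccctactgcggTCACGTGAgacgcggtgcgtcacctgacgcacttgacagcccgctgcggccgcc
Atp6v0e: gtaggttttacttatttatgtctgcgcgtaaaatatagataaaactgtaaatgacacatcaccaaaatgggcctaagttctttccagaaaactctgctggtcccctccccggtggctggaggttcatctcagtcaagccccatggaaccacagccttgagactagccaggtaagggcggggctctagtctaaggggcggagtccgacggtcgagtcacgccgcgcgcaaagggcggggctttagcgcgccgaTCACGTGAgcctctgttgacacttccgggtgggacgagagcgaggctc
Atp6v1a: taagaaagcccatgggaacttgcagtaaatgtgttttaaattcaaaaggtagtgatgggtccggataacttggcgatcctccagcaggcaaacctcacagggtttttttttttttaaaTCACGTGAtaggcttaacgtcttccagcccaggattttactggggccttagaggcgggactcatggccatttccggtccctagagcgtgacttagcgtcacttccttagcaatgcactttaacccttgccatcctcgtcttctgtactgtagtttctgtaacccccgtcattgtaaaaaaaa
Ctsa: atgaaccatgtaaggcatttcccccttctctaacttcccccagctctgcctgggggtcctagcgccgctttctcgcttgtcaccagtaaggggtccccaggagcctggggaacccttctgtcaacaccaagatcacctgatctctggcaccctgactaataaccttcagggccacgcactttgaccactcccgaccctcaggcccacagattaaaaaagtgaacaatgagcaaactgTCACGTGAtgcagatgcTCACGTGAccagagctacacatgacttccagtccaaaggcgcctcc
Ctsd: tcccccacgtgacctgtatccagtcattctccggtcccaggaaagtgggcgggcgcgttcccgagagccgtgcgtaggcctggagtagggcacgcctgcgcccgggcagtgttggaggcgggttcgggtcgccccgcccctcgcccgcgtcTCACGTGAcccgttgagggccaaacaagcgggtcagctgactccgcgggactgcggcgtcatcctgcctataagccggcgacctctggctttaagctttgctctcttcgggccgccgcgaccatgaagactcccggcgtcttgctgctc
Mcoln1: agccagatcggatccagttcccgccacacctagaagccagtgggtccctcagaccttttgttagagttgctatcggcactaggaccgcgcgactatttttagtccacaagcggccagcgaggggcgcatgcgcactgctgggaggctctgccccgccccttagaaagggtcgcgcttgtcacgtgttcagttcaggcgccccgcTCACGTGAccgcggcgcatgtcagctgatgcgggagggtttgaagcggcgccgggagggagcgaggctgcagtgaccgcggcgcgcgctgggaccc
These windows lie at chr8:105566015-105566314 (minus strand), chr17:26676146-26676445 (plus), chr16:44139210-44139509 (minus), chr2:164833523-164833822 (plus), chr7:142387778-142388077 (minus) and chr8:3500269-3500568 (plus). Measured from the start of transcription, the motif was centred 128 bases upstream in Atp6v1a, 95 in Ctsd and 42 in Mcoln1. It sat at the start itself in Atp6v0d1, 6 bases downstream in Atp6v0e, and at 2 places in Ctsa, 9 bases upstream and 8 downstream. A match describes the letters of the window only. Carriers of the motif moved in both directions: Atp6v0d1, Atp6v0e, Atp6v1a, Ctsa and Ctsd were higher in the treated control grafts, and Mcoln1 was lower, or level under the all-gene scaling, as described below. Members with none of these motifs in the window, such as Ctss, Ctsc, Ctsz, Cd68 and Npc2, also rose.

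Per kilobase of exon and over all 10 libraries, levels ranged widely within each subset. Among V-ATPase genes, the V1 stalk subunit Atp6v1g1 was highest at 658 CPM per kb, followed by Atp6v1f at 232 and the V0 subunit Atp6v0b at 168. The proton-carrying ring subunit Atp6v0c stood at 95.5 CPM per kb, the B subunit Atp6v1b2 of the ATP-hydrolysing head at 35.6 and its catalytic A subunit Atp6v1a at 22.6. The genes for the large membrane subunit a were the lowest, with Atp6v0a1 at 2.79 and Atp6v0a2 at 2.08 CPM per kb, beside 4.08 for Tcirg1, the a3 isoform of osteoclasts and leukocytes. Cathepsin S, an antigen-processing protease of phagocytes, led the cathepsins with 1219 CPM per kb for Ctss, ahead of Ctsz at 209, Ctsc at 161 and Ctsb at 147. Ctsk, the collagen-degrading cathepsin K of osteoclasts and fibroblasts, was the lowest at 4.95. In the third subset, Cd68 at 270.3 and Cd63 at 250.1 CPM per kb were highest, and Tfeb at 0.699 was lowest. The lengths are those of all annotated exons joined, so a gene with long exons that these cells do not use is understated. By mean level, 27 members were at 100 CPM or more, 5 at 20 to 100, 4 at 5 to 20, and 2, Gaa and Tfeb, were under 5 CPM and were tested only in the all-gene scaling.

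**Figure D1:**
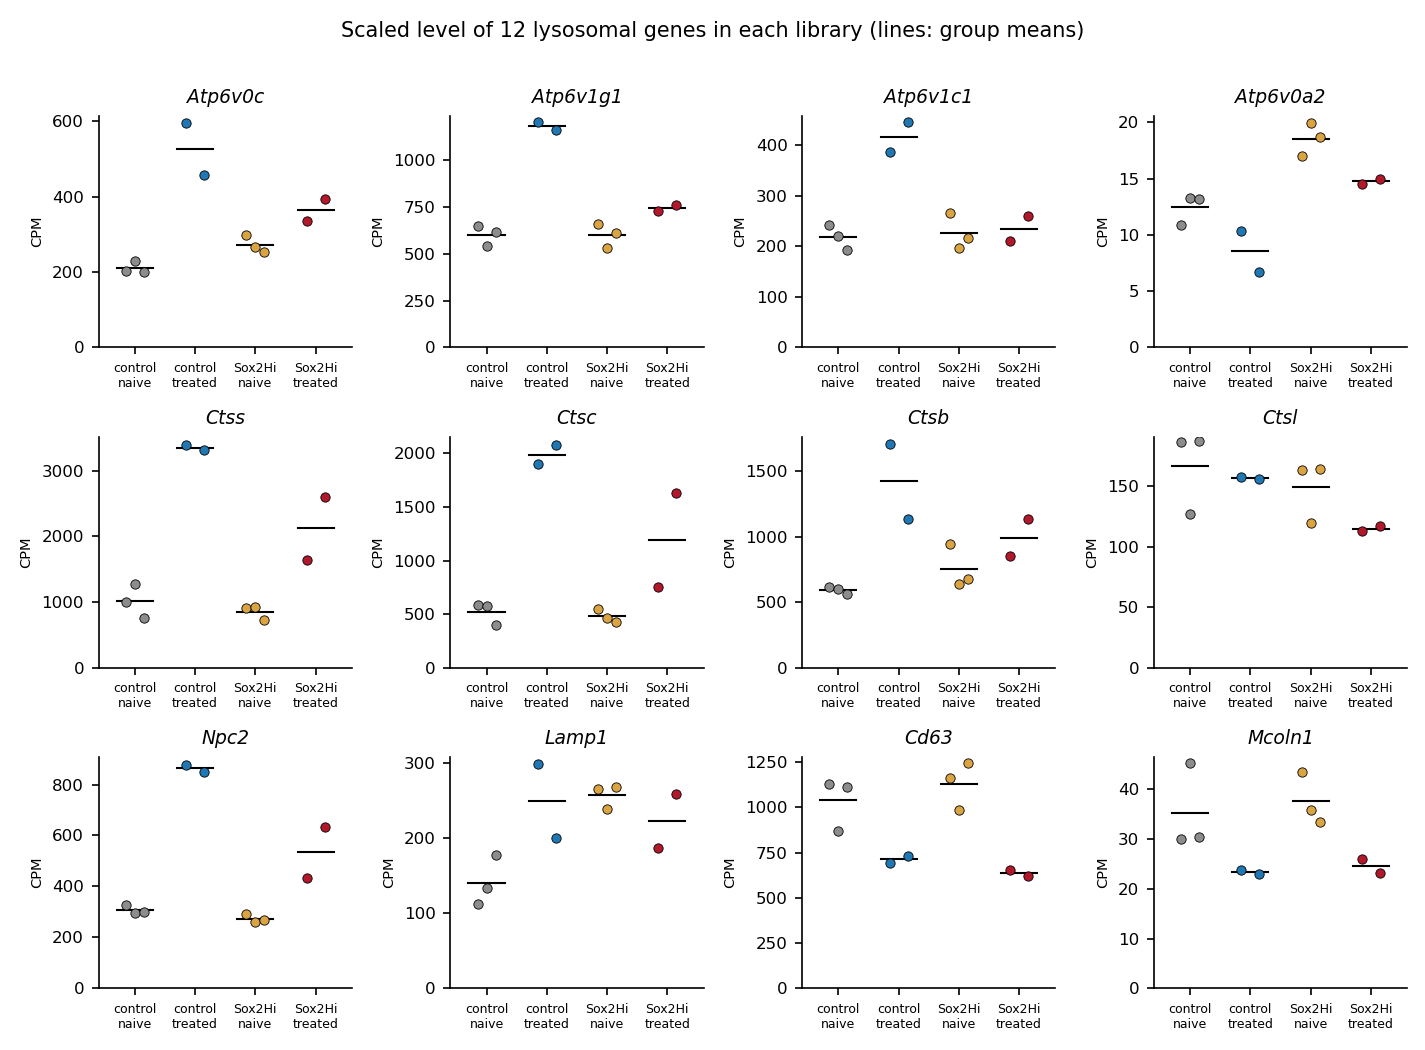
Level of 12 members in each library, in CPM under the expressed-gene scaling (y axis, from 0), for the 4 groups (x axis); points are libraries and lines are group means. Atp6v0c, Atp6v1g1, Atp6v1c1, Ctss, Ctsc, Ctsb and Npc2 are higher in both control treated libraries than in all other groups, except that Ctsb is level, at 1135 CPM in the second Sox2Hi and 1138 in the second control treated library; Cd63 and Mcoln1 are lower in the 4 treated libraries than in the 6 naive ones.

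The first comparison asked how neutrophils of control grafts differed between treated and naive mice. Lysosomal genes were broadly higher after treatment: of 36 members tested, 27 rose and 4 fell under the expressed-gene scaling, where 24.1% of all 11274 genes rose and 33.1% fell. In the all-gene scaling 30 of 38 rose and none fell, with 18.7% of genes higher and 15.3% lower, and 68.6% higher at 100 CPM or more. With factors from genes of 100 CPM or more 18 rose and 6 fell of 36, against 10.3% and 58.4% of genes. The naive and treated libraries did not overlap in 29 members with treated higher and 3 with treated lower, against 29.6% and 38.8% of all genes. The members' median was 0.92 on the log2 scale, against -0.18 over all genes tested and 0.52 over the genes with a mean of 100 CPM or more. For the 27 members at that level the median was 1.05, with 25 higher and 1 lower, where 53.7% of genes at that level were called higher.

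Genes of both sectors of the proton pump rose. Of the 16 V-ATPase genes 13 were higher and 1 lower, with a median of 0.92. Atp6v0c (ENSMUSG00000024121, chromosome 17, 24163866 to 24169702 on GRCm38) had 204, 229 and 201 CPM in the control naive libraries and 595 and 459 in the control treated ones. Both treated libraries were above all the naive ones, and the log2 fold change was 1.32 (SE 0.16, adjusted p = 2.0e-04). Its annotated pseudogene copies could share reads with it. Atp6v1b2 rose from 127, 134 and 107 CPM to 360.2 and 249, a log2 fold change of 1.31 (SE 0.20, adjusted p = 5.4e-04). Atp6v0b, with 255, 264 and 215 CPM naive and 577 and 545 treated, changed by 1.19 (SE 0.16, adjusted p = 2.9e-04). Atp6v0d1, which joins the stalk to the membrane ring, changed by 1.15 (SE 0.16, adjusted p = 4.0e-04) and the catalytic Atp6v1a by 1.07 (SE 0.16, adjusted p = 5.5e-04). In these 5 genes the naive and treated libraries did not overlap. The most abundant pump gene per kilobase, Atp6v1g1, had 648, 542 and 615 CPM in naive and 1205 and 1163 in treated libraries. Atp6ap1 and Atp6ap2, accessory proteins of pump assembly, rose less, by 0.78 and 0.51, and with factors from genes of 100 CPM or more Atp6ap2 stood at -0.04. Atp6v1h, a regulatory subunit, and Atp6v0a1 were not called, at 0.35 (SE 0.15, adjusted p = 0.072) and 0.56 (SE 0.23, adjusted p = 0.058), but both were with all-gene factors, at 0.89 (edgeR's adjusted p = 0.0057) and 1.11 (adjusted p = 0.0023). With a block for the shared replicate number of naive libraries, Atp6v0a1 was called (adjusted p = 0.021). The exception in direction, Atp6v0a2, is the a subunit linked to the Golgi and endosomes, and is given below.

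The 2 largest rises of the set were those of cathepsin genes. Of the 9 cathepsins 7 rose, Ctsk fell and Ctsl was not called, and the median was 1.18. Ctsc (ENSMUSG00000030560, chromosome 7, 88278085 to 88310888), the activator of granule serine proteases, had 587, 579 and 403 CPM naive and 1896 and 2072 treated, a log2 fold change of 1.92 (SE 0.29, adjusted p = 5.1e-04). Ctss (ENSMUSG00000038642, chromosome 3, 95526786 to 95556403) had 1009, 1273 and 761 CPM naive and 3388 and 3308 treated, a change of 1.72 (SE 0.25, adjusted p = 4.4e-04). The lower treated library of each was more than 2 times the highest naive one. Ctsz, the carboxypeptidase cathepsin Z, rose by 1.59 (SE 0.25, adjusted p = 5.9e-04), and Ctsb, with 617, 600.4 and 567 CPM naive against 1709.7 and 1138 treated, by 1.26 (SE 0.23, adjusted p = 0.0011). The aspartic protease gene Ctsd rose by 1.18, Ctsa by 0.80 and Ctsh by 0.78. The 2 treated libraries were close for Ctss and Ctsc but not for Ctsb, Ctsd or Ctsa, where the first was higher. Ctsl, an endopeptidase of many cell types, stood at 186, 127 and 188 CPM naive and 157 and 156 treated, a change of -0.09 (SE 0.20, adjusted p = 0.7) that was 0.44 with all-gene factors and not called there either.

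Of the 11 other lysosomal genes tested, 7 rose and 2 fell, with a median of 0.82. Cd68, a heavily glycosylated membrane protein of phagocyte lysosomes, had 255, 244 and 171 CPM naive and 737 and 613 treated, a log2 fold change of 1.60 (SE 0.27, adjusted p = 9.1e-04). Npc2 (ENSMUSG00000021242, chromosome 12, 84754562 to 84773152), which carries cholesterol inside the lysosome, had 326, 298 and 299 CPM and 877 and 849.9, a change of 1.49 (SE 0.17, adjusted p = 1.4e-04). Both were higher in each treated library than in any naive one, Npc2 with the tighter groups. Psap, the precursor of the saposins that help digest sphingolipids, changed by 1.33 (SE 0.25, adjusted p = 0.0013), although its treated libraries differed, at 676 and 359 CPM. Lipa, the acid lipase, rose by 1.32 (SE 0.22, adjusted p = 7.5e-04). The membrane proteins Lamp2 and Lamp1 rose by 1.00 (SE 0.18, adjusted p = 0.0011) and 0.82 (SE 0.23, adjusted p = 0.011), and Hexa, a subunit of beta-hexosaminidase, by 0.66. Gusb, which encodes beta-glucuronidase, changed by -0.04 (SE 0.16, adjusted p = 0.84) and Npc1, the membrane partner of Npc2, by 0.26 (SE 0.21, adjusted p = 0.31). With all-gene factors these were 0.51 (edgeR's adjusted p = 0.059) for Gusb and 0.83 (adjusted p = 0.009) for Npc1. Without the first control treated library the calls for Lamp1 (adjusted p = 0.067) and Ctsa (adjusted p = 0.1) were lost.

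The 4 members that fell did so under a scaling that decides their direction or call. Cd63 (ENSMUSG00000025351, chromosome 10, 128900989 to 128912822), a tetraspanin of late endosomes and azurophil granules, had 1131, 869 and 1113 CPM naive and 694 and 733 treated, a log2 fold change of -0.54 (SE 0.17, adjusted p = 0.021) that was 0.00 in the all-gene scaling. Mcoln1 (ENSMUSG00000004567, chromosome 8, 3500457 to 3515232), the calcium channel of the lysosomal membrane, had 30.0, 45.3 and 30.4 CPM and 23.8 and 22.9, a change of -0.59 (SE 0.21, adjusted p = 0.031) against -0.03 in the all-gene scaling. All the treated libraries were below all the naive ones for both genes. Atp6v0a2 (ENSMUSG00000038023, chromosome 5, 124628576 to 124724455) had 10.9, 13.3 and 13.2 CPM and 10.3 and 6.73, a change of -0.55 (SE 0.21, adjusted p = 0.041) against -0.01. About 15.2% of its reads would be expected from the silent-gene background, and with that background subtracted its change was -0.39 (adjusted p = 0.2). Ctsk had 9.99, 5.04 and 12.8 CPM and 2.17 and 5.72, overlapping, with a change of -1.23 (SE 0.48, adjusted p = 0.048) against -0.70. Cd63 and Atp6v0a2 are named because the count is small, after their values were seen. Of 10 fits that each left out 1 library, Cd63 and Mcoln1 kept the call in 6, Ctsk in 4 and Atp6v0a2 in 2.

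Markers of cell identity moved beside these changes. The 20 neutrophil markers summed to 1.49 to 2.43% of scaled counts in the naive and 4.53 to 4.77% in the treated control-graft libraries, and 18 of the 20 rose. The macrophage and dendritic cell list summed to 0.683 to 1.02% and 1.63 to 1.74%, most of it Cd74, at 5363 to 8185 CPM and 13757 to 15208 CPM, and 3 of its 14 tested genes rose. Csf1r, a receptor of macrophages, was at 12.6 to 18.4 and 28.3 to 33.9 CPM, and Apoe at 439 to 701 and 269.9 to 513. The fibroblast and endothelial list fell from 0.0617 to 0.166% to 0.0205 to 0.0247%, with 8 of 9 tested genes lower, in the same libraries in which Ctsk was lower. The keratinocyte list stood at 0.123 to 0.337% and 0.0847 to 0.177%, with 4 of 13 genes lower, although in the all-gene scaling edgeR called none of 14, with 1 at an unadjusted p under 0.05. T and NK cell markers summed to 66.4 to 105 and 162 to 557 CPM, with 5 of 8 tested genes higher, and mast cell markers to 42.2 to 254 and 9.32 to 49.3 CPM, with 3 of 4 lower. The part of these cell types in the lysosomal changes was not tested. In bulk RNA, more or fewer cells of one type and more or less RNA per cell cannot be told apart.

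**Figure D2:**
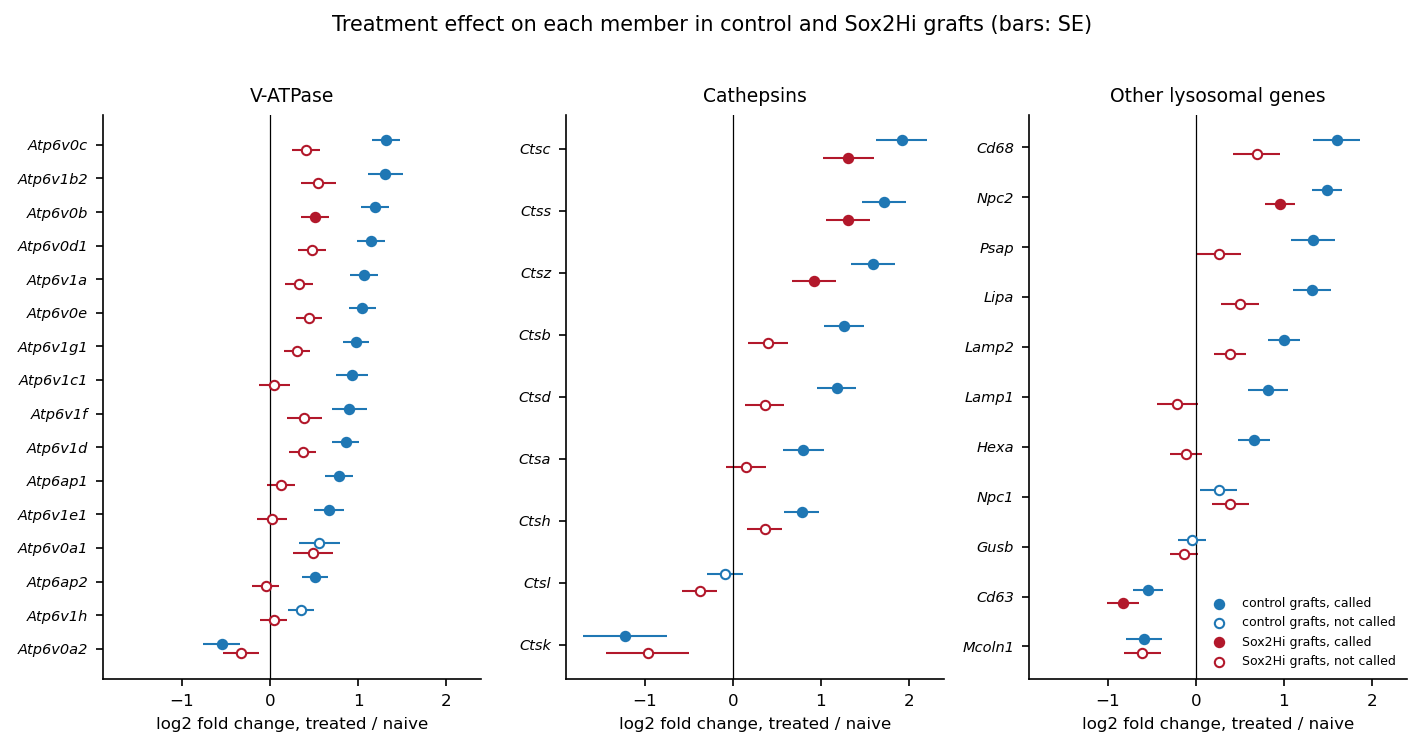
Log2 fold change of treated over naive (x axis) for each of the 36 tested members, in control grafts (blue) and Sox2Hi grafts (red), by subset; bars are standard errors, filled points were called at adjusted p under 0.05 and open points were not. In control grafts 27 points are called to the right of 0 and 4 to the left, in Sox2Hi grafts 5 and 1; all 4 leftward control points reach between -0.70 and 0.00 in the all-gene scaling.

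The same treatment was then compared in Sox2Hi grafts, where 3 of 9 cathepsins (Ctsc, Ctss and Ctsz) and Npc2 rose and Cd63 fell, and Atp6v0b rose with a call that most other settings did not keep. Of 36 members 5 rose and 1 fell, where 15.0% of all genes rose and 6.57% fell. All 5 rises were among the 27 members at 100 CPM or more, where 23.4% of genes rose, so the share of members that rose was no larger than that of other genes. The median was 0.36 against 0.09 over all genes and 0.13 over genes at 100 CPM or more. Under the all-gene scaling Ctss alone rose and Cd63 and Mcoln1 fell, of 38 tested, where 1.79% of genes rose and 1.82% fell. Libraries did not overlap in 16 members with treated higher and 5 with treated lower, against 37.0% and 25.4% of genes. With the block for naive replicate numbers 9 rose and 2 fell, where 18.9% of all genes rose and 9.38% fell: Atp6v0d1, Atp6v0e, Atp6v1b2 and Cd68 were added to the rises and Mcoln1 to the falls.

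Cathepsin genes again had the 2 largest rises. Ctss had 906, 931 and 728 CPM in naive and 1640.0 and 2607 in treated libraries, a log2 fold change of 1.31 (SE 0.25, adjusted p = 0.0074) and of 1.05 in the all-gene scaling. Ctsc had 552, 463 and 425 CPM naive and 752 and 1631 treated, a change of 1.31 (SE 0.29, adjusted p = 0.013). The second treated library was the higher one for both, 2 times or more the first for Ctsc. Ctsz rose by 0.92 (SE 0.25, adjusted p = 0.026) and Npc2, with 292, 261 and 268 CPM naive and 435 and 634 treated, by 0.96 (SE 0.17, adjusted p = 0.0053). Of the pump only Atp6v0b rose, by 0.51 (SE 0.16, adjusted p = 0.041). Its call held in 2 of 13 alternative fits (adjusted p from 0.023 to 0.4) and in 2 of 10 that each left out 1 library, where those of Ctsc, Ctss, Ctsz, Npc2 and Cd63 held in 12 or 13 and in 7 to 9. The other 15 V-ATPase genes, from -0.33 for Atp6v0a2 to 0.55 for Atp6v1b2, were not called. Cd63 fell from 1163, 983 and 1246 CPM to 655 and 622, a change of -0.83 (SE 0.18, adjusted p = 0.012) that was -1.10 in the all-gene scaling. Mcoln1, at 43.5, 35.7 and 33.4 CPM naive and 26.0 and 23.2 treated, changed by -0.61 (SE 0.21, adjusted p = 0.057), with an adjusted p of 0.033 in the all-gene scaling and 0.043 with the block. Lamp1 changed by -0.21 (SE 0.23, adjusted p = 0.53), Lamp2 by 0.39 (SE 0.18, adjusted p = 0.13), Ctsk by -0.97 (SE 0.47, adjusted p = 0.15) and Atp6v0a1 by 0.49 (SE 0.23, adjusted p = 0.14).

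Without the second Sox2Hi treated library none of the 36 was called by edgeR, with 4 at an unadjusted p under 0.05. Over all genes 194 of 11334 were then called, against 2433 of 11274 with it. Ctss then stood at 0.88 (edgeR's adjusted p = 0.14) and Ctsc at 0.59 (adjusted p = 0.22). Without the third Sox2Hi naive library 2 were called higher and none lower, where 4.83% of all genes were higher and 1.03% lower. The neutrophil markers summed to 1.40 to 2.03% in naive and 2.54 to 2.60% in treated libraries, with 11 of 20 higher, and 2 of 8 tested T and NK cell markers were higher. The macrophage and dendritic cell list was 0.826, 0.990 and 0.696% in the naive libraries and 0.919 and 2.18% in the treated ones, so the library with more Ctsc and Ctss also had more of these markers, Cd74 reaching 18336 CPM there against 7673 in the first. Fibroblast and endothelial markers fell here too, in 6 of 9 tested genes. Their part in these values was not tested.

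The next comparison set the grafts side by side in naive mice. Of 36 members 1 was called, Lamp1 (ENSMUSG00000031447, chromosome 8, 13159161 to 13175338), a major glycoprotein of the lysosomal membrane, where 2.10% of all genes were higher in Sox2Hi and 11.9% lower and 2.72% of genes at 100 CPM or more were higher. Its level was 113, 133 and 177 CPM in control naive and 265, 239 and 268 in Sox2Hi naive libraries, with no overlap, a log2 fold change of 0.87 (SE 0.21, adjusted p = 0.022). In the same libraries Lamp2 stood at 472, 550.1 and 415 and 528, 455 and 398 CPM, a difference of -0.06 (SE 0.16, adjusted p = 0.88), which was 0.32 in the all-gene scaling. Psap differed by 0.66 (SE 0.23, adjusted p = 0.079), Atp6v0a2 by 0.57 (SE 0.18, adjusted p = 0.06), Ctsa by 0.56 (SE 0.21, adjusted p = 0.11) and Ctsd by 0.50 (SE 0.20, adjusted p = 0.13), none of them called, though no library of the 2 groups overlapped. Libraries did not overlap in 9 members in which Sox2Hi was higher and in 1 in which it was lower, against 10.7% and 21.8% of all genes. Mcoln1, Ctsk and Atp6v0a1 differed by 0.09 (SE 0.18, adjusted p = 0.81), 0.06 (SE 0.40, adjusted p = 0.95) and 0.15 (SE 0.21, adjusted p = 0.74). With all-gene factors 7 members were higher and none lower, against 1.66% and 0.209% of genes, and 6.04% higher at 100 CPM or more. Lamp1 lost the call without the first or second control naive library or any 1 of the 3 Sox2Hi naive libraries (adjusted p from 0.053 to 0.089), with log2 fold changes of 0.73 to 0.92 against 0.87. No member was then called by edgeR, with 2 to 12 at an unadjusted p under 0.05, and calls over all genes fell from 1576 of 11274 to between 4 of 11232, without the third Sox2Hi naive library, and 786 of 11267, without the first. Without the first or second control treated library 7 and 6 members were called, all higher in Sox2Hi grafts, where 4.13% and 4.06% of all genes were higher.

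The grafts were then compared in treated mice, where 5 pump genes, Npc2 and Lamp2 were lower in Sox2Hi than in control grafts and Atp6v0a2 was higher. Of 36 members 7 were lower and 1 higher, where 5.87% of all genes were lower and 15.0% higher. All 7 were among the 27 members at 100 CPM or more, a level at which 19.7% of genes were called lower, so the share of lower members was near that of genes at their level. The median was -0.45 against 0.04 over all genes and -0.37 over genes at 100 CPM or more. With all-gene factors 25 of 38 were lower and none higher, against 9.57% and 4.18% of genes, and 56.8% lower at 100 CPM or more. With factors from genes at 100 CPM or more none was lower and 1, Atp6v0a2, was higher, against 1.14% and 32.3%. The libraries did not overlap in 24 members in which Sox2Hi was lower and 1 in which it was higher, against 26.3% and 34.3% of genes.

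Of the 7 lower members 5 were pump genes. Atp6v1c1 (ENSMUSG00000022295, chromosome 15, 38661933 to 38692446), a stalk subunit that links the sectors, had 386 and 445 CPM in control treated and 209.6 and 259 in Sox2Hi treated libraries, a log2 difference of -0.83 (SE 0.20, adjusted p = 0.018). Atp6v0e, a small membrane subunit, had 761 and 789.9 and 433 and 519 CPM, a difference of -0.70 (SE 0.17, adjusted p = 0.019). Atp6v1g1, with 1205 and 1163 and 727 and 762 CPM, differed by -0.67 (SE 0.17, adjusted p = 0.022). No Sox2Hi treated library reached the lower control treated one in these 3 genes. Atp6v1a differed by -0.62 (SE 0.18, adjusted p = 0.036) and Atp6v1d by -0.56. Npc2 differed by -0.69 (SE 0.19, adjusted p = 0.027) and Lamp2, with 938 and 977 CPM in control and 537 and 667 in Sox2Hi grafts, by -0.67 (SE 0.20, adjusted p = 0.038). Atp6v0a2 went the other way, with 10.3 and 6.73 CPM in control and 14.5 and 15.0 in Sox2Hi treated libraries, a difference of 0.80 (SE 0.23, adjusted p = 0.032), which was 0.36 and not called in the all-gene scaling. No cathepsin was called by edgeR, with 2 of 9 at an unadjusted p under 0.05, Ctsc at -0.74 (SE 0.32, adjusted p = 0.12) and Ctss at -0.66 (SE 0.28, adjusted p = 0.11) being lower in both Sox2Hi libraries than in both control ones. With all-gene factors 6 cathepsins were called lower, Ctss (edgeR's adjusted p = 0.016), Ctsb (0.026), Ctsz (0.027), Ctsc (0.028), Ctsl (0.047) and Ctsh (0.048), by 0.76 for Ctsh to 1.18 for Ctsc on the log2 scale. Lamp1, Mcoln1, Ctsk and Atp6v0a1 differed by -0.16 (SE 0.25, adjusted p = 0.69), 0.08 (SE 0.23, adjusted p = 0.84), 0.32 (SE 0.52, adjusted p = 0.7) and 0.07 (SE 0.25, adjusted p = 0.87), the last 3 being negative in the all-gene scaling.

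With the naive block 11 members were lower and 1 higher, against 8.28% and 16.5% of all genes, the added ones being Atp6v0b, Atp6ap2, Cd68 and Ctsl. Without the first Sox2Hi treated library none was called by edgeR, with 6 at an unadjusted p under 0.05, and 448 of 11225 genes were called in all. Leaving out the second control treated library leaves 1 in that group. The calls of Atp6v1c1, Atp6v0e and Npc2 were then lost, with log2 differences of -0.86, -0.81 and -0.85. Without the first control naive library 4 members were lower and 1 higher, where 3.28% of all genes were lower and 11.4% higher. Of the 13 alternative fits, 11 kept the calls of Atp6v1c1, Atp6v0e, Atp6v1g1 and Npc2, 9 that of Atp6v0a2, 7 those of Atp6v1a and Lamp2 and 6 that of Atp6v1d. Of the 20 neutrophil markers 7 were lower in Sox2Hi than in control treated libraries, S100a8 standing at 7539 to 10217 CPM in control and 3582 to 3834 in Sox2Hi grafts, and none of the 14 tested macrophage and dendritic cell markers was called by edgeR or had an unadjusted p under 0.05. Of other lists 2 of 13 keratinocyte, 1 of 9 fibroblast and endothelial and 2 of 4 mast cell markers were higher in Sox2Hi libraries. The part of these markers in the lower pump genes was not tested.

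**Figure D3:**
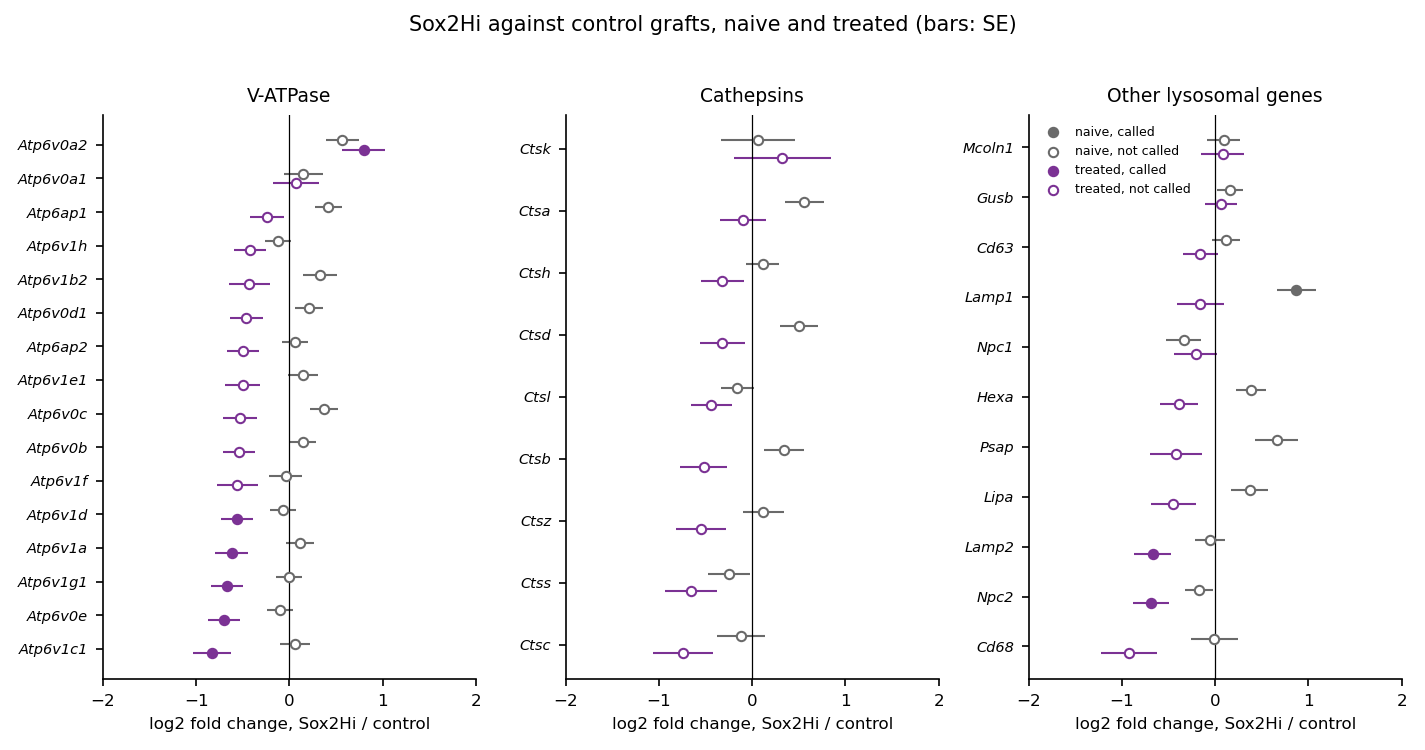
Log2 fold change of Sox2Hi over control grafts (x axis) for each tested member, in naive (grey) and treated mice (purple), by subset; bars are standard errors, filled points were called at adjusted p under 0.05. Lamp1 is the 1 naive point called, at 0.87; in treated mice 7 points are called left of 0 and Atp6v0a2 right of it, at 0.80, under the expressed-gene scaling.

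The difference between the 2 treatment responses was tested as an interaction. Of 36 members 4 responded less in Sox2Hi than in control grafts and none more, where 2.84% of all genes were lower and 16.9% higher. The 4 were among the 27 members at 100 CPM or more, a level at which 7.88% of genes were lower. The median was -0.63, against 0.02 over all genes and -0.37 over genes at 100 CPM or more. The 4 were Lamp1 at -1.03 (SE 0.33, adjusted p = 0.049) and the pump genes Atp6v0c at -0.91 (SE 0.23, adjusted p = 0.017), Atp6v1c1 at -0.88 (SE 0.25, adjusted p = 0.031) and Atp6v1a at -0.74 (SE 0.23, adjusted p = 0.048). Lamp1 had risen by 0.82 in control grafts and changed by -0.21 in Sox2Hi grafts, where its naive level was already 257 ± 16.0 CPM (SD, n = 3) against 141 ± 32.9 CPM (SD, n = 3). Atp6v1c1 had risen by 0.93 and changed by 0.05. For the cathepsins with the largest rises the interaction was not called, at -0.41 (SE 0.36, adjusted p = 0.47) for Ctss and -0.61 (SE 0.41, adjusted p = 0.34) for Ctsc, but it was with all-gene factors, at -1.25 (edgeR's adjusted p = 0.015) and -1.44 (adjusted p = 0.021). Ctsk, Mcoln1, Lamp2 and Atp6v0a1 stood at 0.26 (SE 0.66, adjusted p = 0.83), -0.02 (SE 0.29, adjusted p = 0.97), -0.61 (SE 0.26, adjusted p = 0.12) and -0.07 (SE 0.33, adjusted p = 0.91).

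The interaction depended on the processing. With all-gene factors 33 of 38 members were lower and none higher, against 16.2% and 11.3% of genes. At 100 CPM or more 72.5% of genes were lower in that fit. With factors from genes at 100 CPM or more none was called by edgeR, against 0.310% of genes lower and 25.5% higher, and none had an unadjusted p under 0.05. With the silent-gene background subtracted none was called either, with 17 at an unadjusted p under 0.05. With the naive block 8 were lower, against 4.17% of genes lower and 17.4% higher, the added ones being Atp6v0b, Atp6v0d1, Atp6v0e and Atp6v1g1. When 1 library was left out the member count was 0 without the first Sox2Hi treated library, with 4 at an unadjusted p under 0.05, where 0.588% of all genes were lower. It was 1 without the first control naive or the first Sox2Hi naive library (1.15% and 1.35% of genes lower), and 2 without the third control naive, the second Sox2Hi naive or the third Sox2Hi naive library (2.16%, 1.39% and 2.11%). It was 12 without the second control naive library (6.45%), 15 without the second control treated one (8.12%) and 19 without the second Sox2Hi treated one (6.65%).

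**Figure D4:**
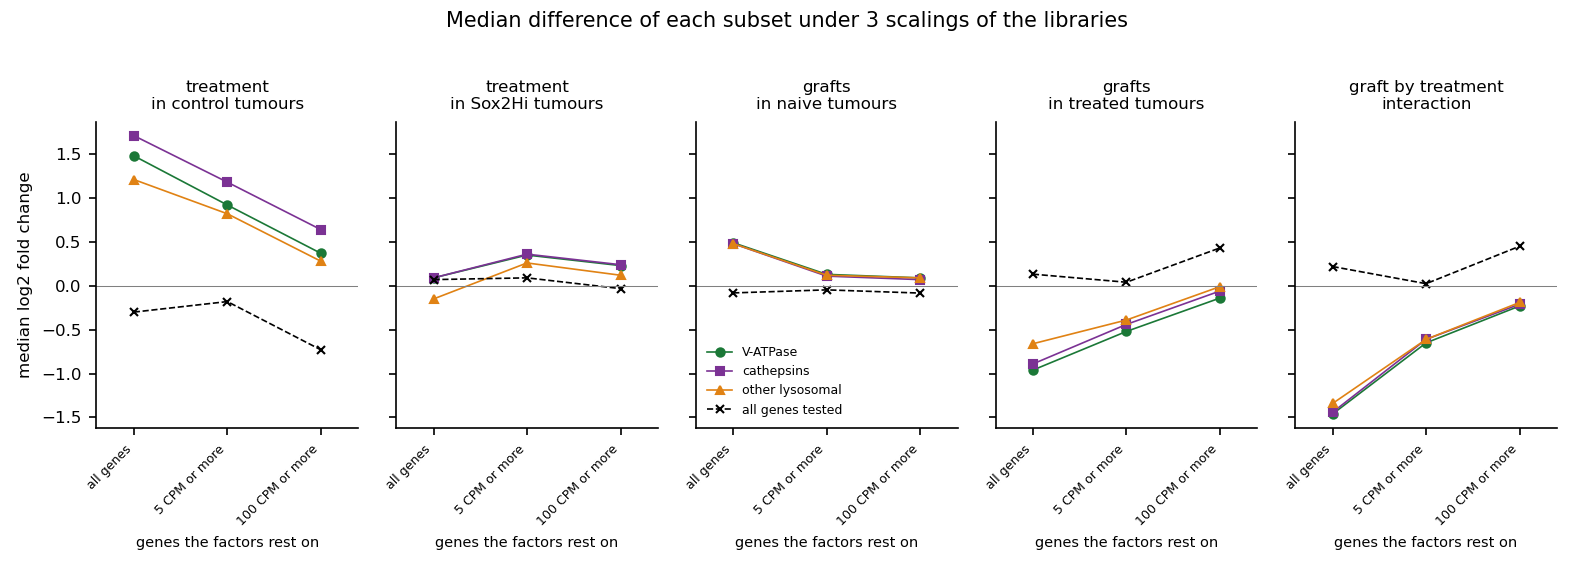
Median log2 fold change of the V-ATPase, cathepsin and other lysosomal subsets and of all genes tested (y axis) when the scaling factors rest on all genes, on genes of 5 CPM or more, or on genes of 100 CPM or more (x axis), for the 5 comparisons. The V-ATPase median for treatment in control grafts is 1.48, 0.92 and 0.37, above the median of all genes each time, and for the grafts in treated mice it is -0.96, -0.52 and -0.14, below it each time.

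Ratios of 2 genes within a library do not change with the scaling. These ratios were chosen after the levels had been seen and carry no test. Cd63 reads per Cd68 read were 4.44, 3.57 and 6.51 in control naive, 0.941 and 1.20 in control treated, 3.76, 5.54 and 7.06 in Sox2Hi naive libraries and 2.21 and 1.49 in their treated counterparts. All 4 treated libraries were below all 6 naive ones, and the Sox2Hi treated pair was above the control treated pair. Mcoln1 per Lamp2 read showed the same order, with 0.0635, 0.0824 and 0.0733 in control naive, 0.0254 and 0.0234 in control treated, 0.0824, 0.0785 and 0.0839 in Sox2Hi naive libraries and 0.0485 and 0.0348 in their treated counterparts. Within the V0 sector, Atp6v0a2 per Atp6v0c read was 0.0535, 0.0582 and 0.0659 in naive and 0.0174 and 0.0147 in treated control-graft libraries. In Sox2Hi grafts it was 0.0569, 0.0747 and 0.0738 naive and 0.0435 and 0.0382 treated, again lower after treatment. Ctsl per Ctss read was 0.0999 to 0.246 and 0.129 to 0.226 in the naive groups and 0.0465 to 0.0471 and 0.0451 to 0.0688 in the treated ones, control first. Lamp1 per Lamp2 read separated the grafts in naive mice, at 0.239, 0.242 and 0.427 in control and 0.502, 0.524 and 0.672 in Sox2Hi libraries.

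Summed over the subsets, V-ATPase genes held 3039 to 3356 CPM in control naive, 6059.8 to 6343 in control treated, 3244 to 3755 in Sox2Hi naive libraries and 3874 to 4527 in their treated counterparts. The cathepsins held 2392 to 3145, 7686 to 8513, 2580.3 to 3301 and 4135 to 6525 CPM in the same order, and the other lysosomal genes 2519.7 to 2632, 3956 to 4456, 2590.0 to 3122 and 2619 to 3256 CPM. These sums depend on the scaling. As a mean share of all counts the V-ATPase genes held 0.332% in control naive and 0.453% in control treated libraries, and 0.390% in Sox2Hi naive and 0.375% in Sox2Hi treated ones, so that in Sox2Hi grafts the treated mean, higher in CPM, was then the lower one. On that measure the other lysosomal genes held 0.266% and 0.307% in control grafts, and 0.326% and 0.262% in Sox2Hi grafts, while the cathepsins, higher after treatment in both, held 0.293% and 0.592% in control grafts and 0.328% and 0.470% in Sox2Hi grafts. Cd63 weighed on the sum of the other lysosomal genes in Sox2Hi grafts, at a mean of 1131 of 2857 CPM naive and 638 of 2937 CPM treated. The cathepsin sum per V-ATPase sum, free of the scaling, was 0.787 to 0.991, 1.27 to 1.34, 0.793 to 0.879 and 1.07 to 1.44, higher in each of the 4 treated libraries than in each of the 6 naive ones. The sum of the other lysosomal genes per V-ATPase sum was 0.784 to 0.832, 0.653 to 0.702, 0.798 to 0.878 and 0.676 to 0.719, lower in each treated library than in each naive one. This ratio rests largely on Cd63, a mean of 1038 of 2559.5 CPM in control naive and 714 of 4206 CPM in control treated libraries. It does not describe each gene of the subset. The V1 genes per V0 genes varied less, from 1.49 to 1.78 in control naive to 1.37 to 1.38 in Sox2Hi treated libraries, with 1.37 to 1.49 and 1.44 to 1.65 in control treated and Sox2Hi naive ones.

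**Figure D5:**
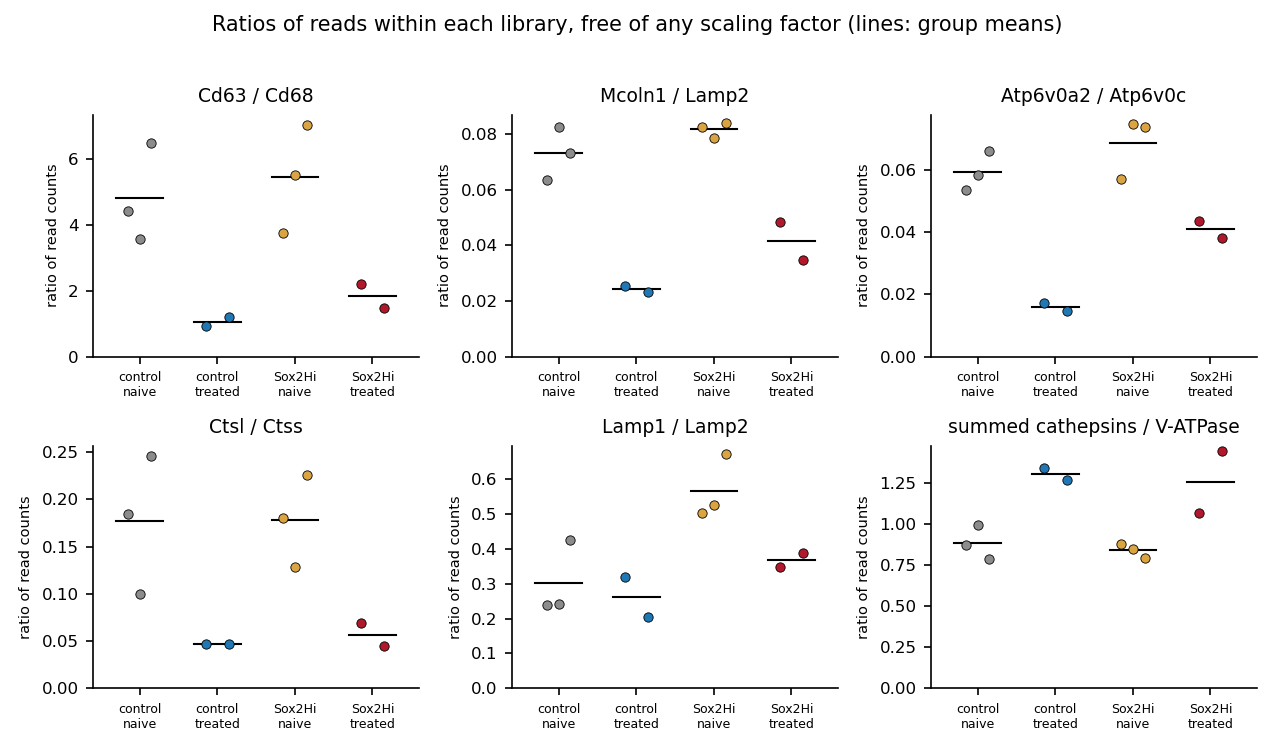
Ratio of read counts of 2 genes, or of 2 sums, within each library (y axis, from 0) for the 4 groups (x axis); points are libraries and lines are group means. The ratios Cd63 / Cd68, Mcoln1 / Lamp2, Atp6v0a2 / Atp6v0c and Ctsl / Ctss are lower in the 4 treated libraries than in the 6 naive ones, and the cathepsin sum per V-ATPase sum is higher.

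A wider set of 123 lysosomal genes was then examined, 92 of them at 5 CPM or more: other pump parts and assembly factors, other cathepsins and cystatins, hydrolases with their sorting receptors, membrane proteins, and the MiT family with its mTORC1 regulators. For treatment in control grafts 43 rose and 7 fell, against 24.1% and 33.1% of all genes, with a median of 0.47. By level, 53.7% of genes at 100 CPM or more rose, 31.8% at 20 to 100 CPM and 11.9% at 5 to 20 CPM. In Sox2Hi grafts 18 rose and none fell, with a median of 0.23, a share near the 15.0% of all genes that rose. With all-gene factors edgeR called none of the 123 there, with 26 at an unadjusted p under 0.05. Among pump assembly factors, Dmxl2, a subunit of the rabconnectin complex, rose by 1.12 (SE 0.21, adjusted p = 0.0015) in control grafts, and Rnasek, a pump-associated membrane protein, by 0.60 (SE 0.14, adjusted p = 0.018) in Sox2Hi grafts. Of hydrolase-list genes Gla, the alpha-galactosidase, had 361, 401 and 279.7 CPM in naive and 891 and 1243 in treated control grafts and rose by 1.62 (SE 0.25, adjusted p = 6.0e-04) there and by 0.81 (SE 0.25, adjusted p = 0.044) in Sox2Hi grafts. Laptm5, a lysosomal membrane protein of blood cells, rose by 1.31 (SE 0.27, adjusted p = 0.0024) in control grafts, and Sppl2a, an intramembrane protease that cleaves the Cd74 fragment, by 0.77 (SE 0.15, adjusted p = 0.0093) in Sox2Hi grafts. Ctso rose in both, by 0.70 (SE 0.18, adjusted p = 0.0066) and 0.67 (SE 0.18, adjusted p = 0.026), and Cstb, the cathepsin inhibitor cystatin B, by 1.03 (SE 0.24, adjusted p = 0.0041) in control grafts.

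The largest falls in control grafts were those of Wipi1 and Tmem9. Wipi1, an autophagy protein, had 23.7, 17.7 and 33.1 CPM in naive and 8.74 and 8.87 in treated control grafts, a change of -1.50 (SE 0.28, adjusted p = 0.0014). Tmem9, a lysosomal membrane protein, had 26.2, 17.6 and 32.9 and 9.75 and 10.7 CPM, a change of -1.32 (SE 0.28, adjusted p = 0.0024). In the all-gene scaling these changes were -0.98 and -0.80. Both were higher in Sox2Hi than in control treated libraries, by 1.04 (SE 0.30, adjusted p = 0.033) and 1.16 (SE 0.29, adjusted p = 0.022), as was the pump-binding protein gene Ncoa7, by 0.79 (SE 0.18, adjusted p = 0.017). In that comparison 14 of the 92 were lower and 6 higher, against 5.87% and 15.0% of all genes. By level, 19.7% of genes at 100 CPM or more were lower, 6.53% at 20 to 100 CPM and 2.05% at 5 to 20 CPM. Falls among genes of 20 CPM or more included Fnip2 at -1.07 (SE 0.24, adjusted p = 0.014), Gla at -0.97 (SE 0.28, adjusted p = 0.035) and Cstb at -0.88 (SE 0.27, adjusted p = 0.041). In naive mice 2 of 92 were higher in Sox2Hi grafts, where 2.10% of all genes were, Tpp1, the tripeptidyl peptidase, at 0.50 (SE 0.14, adjusted p = 0.033) and Ctns, the cystine transporter, at 0.86 (SE 0.21, adjusted p = 0.024). The interaction was called lower in 8 and higher in 4, against 2.84% and 16.9% of all genes, and 7.88% lower at 100 CPM or more. Among the lower were Fnip2 at -1.21 (SE 0.31, adjusted p = 0.017) and the mannose 6-phosphate receptor gene M6pr at -0.98 (SE 0.26, adjusted p = 0.019). The 4 higher ones, Abca2, Tpcn1, Slc29a3 and Arsb, were all under 20 CPM and, like Ctns, are named after their values were seen.

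The pump's d subunit has a second gene, Atp6v0d2, known from osteoclasts and macrophages. It had 8.90, 4.62 and 10.2 CPM in control naive, 52.9 and 29.2 in control treated, 9.69, 4.80 and 4.20 in Sox2Hi naive libraries and 6.95 and 5.52 in their treated counterparts, high in the control treated pair alone, and per Atp6v0d1 read it was 0.101 to 0.149 there against 0.0225 to 0.0310 in Sox2Hi treated libraries. It lies below the level set for named genes and is given because its pattern was known.

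Transcripts of the CLEAR-binding factors were low. Tfeb ranged from 3.51 to 5.04 CPM over the 10 libraries, about 46.3% of its reads would be expected from the background, and in the all-gene scaling its change with treatment in control grafts was 0.33 (SE 0.19, adjusted p = 0.19) and in Sox2Hi grafts -0.15 (SE 0.19, adjusted p = 0.7). Its relatives are named after their values were seen. Tfec had 6.18, 5.32 and 3.16 CPM in naive and 16.3 and 14.2 in treated control grafts and rose by 1.65 (SE 0.30, adjusted p = 0.0013), and in Sox2Hi grafts by 1.26 (SE 0.30, adjusted p = 0.018). Mitf rose by 1.28 (SE 0.23, adjusted p = 0.0012) and 0.87 (SE 0.23, adjusted p = 0.025), and Tfe3 changed by 0.46 (SE 0.25, adjusted p = 0.14) and 0.68 (SE 0.25, adjusted p = 0.075). With all-gene factors, as given for Tfeb, the changes in control grafts were 2.21 for Tfec, 1.84 for Mitf and 1.00 for Tfe3, each called, and in Sox2Hi grafts 1.00, 0.61 and 0.41, none called. No difference between these factors was tested. Fnip2, which works with folliculin in mTORC1 control of these factors, had 18.0, 23.5 and 21.1 CPM in naive and 67.7 and 87.6 in treated control grafts, with no overlap, and rose by 1.90 (SE 0.21, adjusted p = 1.4e-04). In Sox2Hi grafts it had 26.7, 19.4 and 22.8 naive and 30.2 and 43.9 treated, a rise of 0.69 (SE 0.21, adjusted p = 0.042). Of the 20 genes tested in this list 9 rose and 1 fell with treatment in control grafts, against 24.1% and 33.1% of all genes, and 4 rose in Sox2Hi grafts, against 15.0%. RNA levels say nothing of where in the cell these factors are.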

How the data were processed

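RNA was sequenced in bulk from 10 libraries of sorted tumour neutrophils. The authors deposited 1 table of estimated counts per Ensembl gene, whole numbers as deposited, and the submitters' processing notes name kallisto 0.44.0 and mm10, with no role given. Per the labels' protocols, RNA came from a Zymo microprep kit and libraries from NEBNext's single cell and low input kit. Strand handling and annotation are not given in the sources used here. The 96 entries that are not mouse genes, at most 0.00277% of a library, were left out. Symbols came from GENCODE M21 and promoters from RefSeq.

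All 10 libraries entered 1 model of 4 group means in edgeR 4.0.16 (R 4.3.3), over the 11274 genes that averaged 5 CPM or more, whose counts also gave the TMM factors, with Benjamini-Hochberg adjustment. Standard errors were taken as the size of the log2 fold change over √F. The fit was checked on simulated data. The members, lists and tests were chosen with earlier results of these data known. Named members are, per comparison, the called ones with the largest change (5 V-ATPase, 4 cathepsin, 5 other at most). Atp6v0a1, Ctsk, Lamp1, Lamp2, Mcoln1 and Tfeb are given always, and from each wider list the called genes with the largest rise and fall at 20 CPM or more. Other members are given to account for the whole set, and 1 gene of the wider lists that the rule names is not reported here. Alternatives were other scalings, DESeq2 1.42.0, limma 3.58.1, other filters, background subtraction, replicate blocks, a Ddx3y covariate, the groups alone and each library left out. Replicates of a group differed by more than sampling noise (smallest chi-square per degree of freedom 12.5). Naive libraries that share a title number deviated together over genes (r = 0.334, 0.333 and 0.422), so the number was used as a pairing for them, although the labels do not say what it marks. The treated libraries of 1 number did not (r = -0.179). Ddx3y had 4 and 6 reads in the naive libraries numbered 1 and 1007 to 3854 in those numbered 2 and 3. Among treated libraries it was low in control library 1 (8 reads) and Sox2Hi library 2 (7 reads). Its part in the pairing was not tested.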

Additional observations from a re-analysis of the deposited data

Results flagged for a closer look

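Of the members, 4 responded to treatment differently in the 2 grafts by the test of that difference itself, edgeR's interaction term, all with a smaller response in Sox2Hi grafts, where 2.84% of all genes were lower by that term, 16.9% higher, and 7.88% lower among genes at 100 CPM or more. The count was 33 in the all-gene scaling, where 16.2% of all genes and 72.5% of genes at 100 CPM or more were lower. None was called by edgeR with factors from genes of 100 CPM or more (none at an unadjusted p under 0.05), where 0.310% of all genes were lower. With background subtracted none was called either (17 at an unadjusted p under 0.05), where 2.19% were lower. The log2 difference of the responses was -1.03 for Lamp1, -0.91 for Atp6v0c, -0.88 for Atp6v1c1 and -0.74 for Atp6v1a. Under the 12 alternative fits that gave an interaction, Atp6v0c kept its call in 10, Atp6v1c1 and Lamp1 in 8 and Atp6v1a in 6. Of the 10 fits that left out 1 library, the call held in 8 for Atp6v0c, 7 for Atp6v1c1 and 3 each for Lamp1 and Atp6v1a.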

How the results depend on the processing

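For treatment in control grafts the count of members called, in both directions pooled, stayed within 1.5 times 31 under every alternative and was 27 to 30 with 1 library left out. By direction it ran from 30 higher and 0 lower in the all-gene scaling (18.7% of genes higher, 15.3% lower) to 18 higher and 6 lower with factors from genes of 100 CPM or more (10.3% and 58.4%), and 18 of the 31 calls were kept throughout. In the all-gene scaling 68.6% of genes at 100 CPM or more rose with treatment in control grafts. At that level 6.04% were higher between naive grafts, 56.8% lower between treated grafts and 72.5% lower for the interaction. Below, a share in parentheses is that of all genes called in the direction named first for the comparison, unless another is given. For treatment in Sox2Hi grafts 6 were called (15.0% of genes higher), but 3 in the all-gene scaling (1 higher and 2 lower, against 1.79% and 1.82% of genes), 11 with limma-voom (9 higher and 2 lower, against 22.0% and 11.4%) and 11 with the replicate block in the naive libraries (also 9 and 2, against 18.9% and 9.38%), and 0 to 7 with 1 library left out. Between naive grafts 1 was called (2.10% of genes higher), but 7 in the all-gene scaling (1.66%), 7 with DESeq2 (5.83%), 9 with limma-voom (8 higher and 1 lower, against 12.6% and 24.1%), 2 with background subtracted (1.61%) and 0 with the 2 groups fitted alone by edgeR (0.133%; 8 members at an unadjusted p under 0.05), and 0 to 7 with 1 library left out. Between treated grafts 8 were called (5.87% of genes lower; 1 of the 8, and 1 call each with DESeq2, 20 CPM factors, limma-voom and the title block, was higher), but 25 in the all-gene scaling (9.57%), 15 with RLE factors (11.6%), 20 with DESeq2 (16.2%), 5 with factors from genes of 20 CPM or more (2.71%), 1 with factors from genes of 100 CPM or more (higher, as were 32.3% of genes, and none lower), 5 with limma-voom (3.89%), 4 with background subtracted (2.72%), 13 with the title number as a replicate block over all libraries (9.83%) and 0 with the groups fitted alone (1.54%; 15 members at an unadjusted p under 0.05), and 0 to 12 with 1 library left out. For the interaction 4 were called (2.84% of genes lower), but 33 in the all-gene scaling (16.2%), 20 with RLE factors (10.9%), 22 with DESeq2 (15.1%), 1 with 20 CPM factors (1.23%), 0 with 100 CPM factors (0.310%), 7 with limma-voom (5.82%), 0 with background subtracted (2.19%) and 8 with the naive or the title replicate block (4.17% and 5.39%), and 0 to 19 with 1 library left out. The pairing block in the naive libraries changed no other member's call than those given with the results. Crossing the numbers of the treated libraries, which was added after seeing the data as were the 100 CPM factors, gave 2 calls between naive grafts and 7 between treated grafts. The 2 were higher, as were 2.10% of all genes, with 10.9% lower. Of the 7, 6 were lower and 1 higher, against 4.59% and 13.8%. The titles and descriptions number the treated libraries differently, so a block by title number may pair the wrong ones. A lone library left in a group was taken to vary like the others.

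Over the tested members, 5 comparisons and 13 alternatives that keep all libraries, 108 of 2304 values had the opposite sign. Of these 1 was called as reported, Atp6ap2 for treatment in control grafts, at 0.51 and then -0.04 with 100 CPM factors, and none was called in the opposite direction. Others included, with 100 CPM factors between treated grafts, Ctsd (-0.32 to 0.06), Ctsh (-0.32 to 0.05) and Atp6ap1 (-0.24 to 0.15), and Ctss between naive grafts (-0.25 to 0.14 in the all-gene scaling). The next values are those of members given in every comparison. In the all-gene scaling Atp6v0a1 and Mcoln1 stood at -0.37 between treated grafts, Ctsk at -0.15 there and -0.54 for the interaction, and Lamp2 at 0.32 between naive grafts. With RLE factors and with DESeq2 Atp6v0a1 and Mcoln1 were at -0.09 between treated grafts, Ctsk at -0.01 for the interaction and Lamp2 at 0.02 between naive grafts. With background subtracted Atp6v0a1 and Mcoln1 were at -0.01 between treated grafts. For the interaction Atp6v0a1 was at 0.06 with 20 CPM factors and limma-voom and 0.35 with 100 CPM factors, and Mcoln1 at 0.13 and 0.42 with the 2 sets of factors. Ctsk was at -0.13 between naive grafts with limma-voom, and Lamp1 at 0.21 between treated grafts with 100 CPM factors. With 1 library left out, ranges that crossed 0 were, for the interaction, -0.51 to 0.09 (Atp6v0a1), -0.46 to 0.91 (Ctsk) and -0.33 to 0.10 (Mcoln1); between naive grafts, -0.02 to 0.29 (Atp6v0a1), -0.16 to 0.37 (Ctsk), -0.17 to 0.13 (Lamp2) and -0.02 to 0.39 (Mcoln1); between treated grafts, -0.27 to 0.20 (Atp6v0a1), -0.31 to 1.06 (Ctsk), -0.56 to 0.05 (Lamp1) and -0.09 to 0.08 (Mcoln1); and -0.51 to 0.01 for Lamp1 with treatment in Sox2Hi grafts. The cause of these shifts was not tested beyond what each fit changes. With 2 libraries in each treated group, small differences could not be resolved.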
